A study of Mus musculus with 4 samples.

Results

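Ms4a4b, Ms4a4c and Ms4a6b encode membrane proteins of the MS4A family that mouse T cells express. They were chosen by name, with their levels in these libraries already known, and are 3 of the 15301 genes listed in any library of the series. MS4A proteins cross the cell membrane repeatedly and keep both ends inside the cell. The best known relatives are CD20 of B cells, encoded by Ms4a1, and the beta chain of the high-affinity IgE receptor of mast cells, encoded by Ms4a2. In mouse T cells the Ms4a4b protein is known to associate with the costimulatory receptor GITR and to dampen proliferation. Less is established about Ms4a4c and Ms4a6b, which are known as close relatives in mouse lymphoid and myeloid cells.

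The study profiled intraepithelial lymphocytes (IELs) of the mouse colon by 10x Genomics 3′ single-cell RNA sequencing. Live CD3+ CD8α+ cells were sorted either for the γδ T cell receptor (TCRγδ, written as TCRγ alone in the cell type label) or for the β chain of the αβ receptor (TCRβ). Each sort was given as Tcf7KO and as Tcf7WT, 1 library per group: TCRγδ Tcf7KO with 1511 cells, TCRγδ Tcf7WT with 1888, TCRβ Tcf7KO with 5785 and TCRβ Tcf7WT with 7603. All 4 libraries carry the same strain label, E8IcreTcf7fl/fl, a floxed Tcf7 with a Cre recombinase driven by the E8I enhancer of the Cd8a locus, so Tcf7KO and Tcf7WT differ only in the genotype label. The deleted gene, Tcf7, codes for the transcription factor TCF-1, which naive and memory T cells rely on. The labels give no age, and they do not say how many mice each library holds.

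Since each group is 1 library, differences have no replicates behind them and were not tested. Levels are in CPM, the unique molecular identifiers (UMIs) of a gene scaled to the same total in every library. Brackets hold 95% intervals, which cover counting error only. Median depth was 4366 UMIs per cell in TCRγδ Tcf7KO, 3188 in TCRγδ Tcf7WT, 2860 in TCRβ Tcf7KO and 2431 in TCRβ Tcf7WT, so shares of cells are given after each cell was thinned to 1624 UMIs. Tcf7 itself stood at 14.6 CPM in TCRγδ Tcf7KO against 45.7 CPM in TCRγδ Tcf7WT, and at 107 CPM in TCRβ Tcf7KO against 148 CPM in TCRβ Tcf7WT. The deleted part of the gene is not given in the sources used here, and a 3′ tag can lie outside it, so these counts check the genotype labels little. Trdc, the constant segment of the δ chain, was 1905 and 1946 CPM in TCRγδ Tcf7KO and Tcf7WT against 14.7 and 15.4 CPM in TCRβ Tcf7KO and Tcf7WT, and Cd8a lay between 1347 and 1748 CPM, as the sorts are labelled.

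All 3 genes lie on the plus strand of mouse chromosome 19 in GRCm38. Ms4a4c (ENSMUSG00000024675.19) spans chr19:11404770-11427246, Ms4a4b (ENSMUSG00000056290.16) spans chr19:11443553-11467055 and Ms4a6b (ENSMUSG00000024677.13) spans chr19:11516512-11531256. From the start of the first to the end of the last is 126.487 kb, and the relative Ms4a6c lies between Ms4a4b and Ms4a6b. The coding sequences of Ms4a4b and Ms4a4c are both 681 bases long and 91.8% identical. Ms4a6b is 61.9% identical to Ms4a4b over the aligned coding bases and 86.3% identical to Ms4a6c. Of the 50-base stretches of their transcripts, 2.40% in Ms4a4b, 8.19% in Ms4a4c and 3.57% in Ms4a6b also occur in another gene. The gene that some reads came from is therefore uncertain, and not within these pairs alone. Ms4a4c and Ms4a6b also overlap the gene models Gm5692 and Gm19261.

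The promoters of Ms4a4b and Ms4a4c are shown because the genes lie in 1 cluster of relatives and were found in the same cells. That of Ms4a6b was searched but is not shown, since it overlaps an exon of another annotated transcript of the gene. Each window holds the 250 bases before the RefSeq start of the gene in GRCm38.p6, on the plus strand: chr19:11443308-11443557 for Ms4a4b, chr19:11407411-11407660 for Ms4a4c and chr19:11518309-11518558 for Ms4a6b. Capitals mark matches to the ETS core GGAAGT or to ACCACA, the reverse complement of the RUNX core TGTGGT.
Ms4a4b: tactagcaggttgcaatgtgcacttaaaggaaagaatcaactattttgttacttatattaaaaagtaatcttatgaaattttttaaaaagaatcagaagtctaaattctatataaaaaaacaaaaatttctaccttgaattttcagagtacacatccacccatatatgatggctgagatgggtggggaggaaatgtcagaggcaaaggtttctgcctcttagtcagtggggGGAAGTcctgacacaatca
Ms4a4c: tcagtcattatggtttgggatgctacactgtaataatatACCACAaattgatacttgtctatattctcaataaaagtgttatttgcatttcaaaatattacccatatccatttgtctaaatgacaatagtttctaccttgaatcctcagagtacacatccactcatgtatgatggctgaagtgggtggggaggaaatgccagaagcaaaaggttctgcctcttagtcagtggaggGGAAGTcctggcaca
The RefSeq start of each gene lies inside the span given above, which begins at the first annotated transcript, so each window overlaps its span in part or in whole. The windows of Ms4a4b and Ms4a4c were 80.1% identical over 231 aligned bases, and each held GGAAGT near its end, first base at -19 in Ms4a4b and -15 in Ms4a4c. Ms4a6b held GGAAGT at -85 and its reverse complement ACTTCC at -43, and Ms4a4c alone held ACCACA, at -211. Over 32851 promoter windows of the same length and on either strand, 19.7% held the ETS core and 14.05% the RUNX core. The TCF/LEF core TCAAAG, on either strand, was in 13.8% of windows and in none of the 3. These matches describe letters and show no binding.

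Ms4a4b was the most abundant of the 3 in both TCRβ libraries and was far lower in TCRγδ cells. Its level was 10.6 CPM (8.33 to 13.2) in TCRγδ Tcf7KO, 52.1 CPM (46.6 to 58.1) in TCRγδ Tcf7WT, 208 CPM (201 to 215) in TCRβ Tcf7KO and 266 CPM (259 to 273) in TCRβ Tcf7WT. The 4 intervals do not overlap, and the order is the same for the share of cells. After thinning, the share of cells with a Ms4a4b UMI was 1.55% (0.986 to 2.32) in TCRγδ Tcf7KO, 7.05% (5.84 to 8.42) in TCRγδ Tcf7WT, 21.1% (20.04 to 22.3) in TCRβ Tcf7KO and 25.5% (24.5 to 26.5) in TCRβ Tcf7WT. Without thinning the shares were 2.38%, 10.5%, 29.0% and 32.2% in the same order of libraries. In the epithelial-like cluster described below, where no T cell transcript is due, 0 of 45 thinned cells had a UMI, for an upper limit of 6.67% by 3 counts (median 9843 UMIs before thinning). The share in TCRγδ Tcf7KO lies under that limit and is not read as expression across that library. The interval of TCRγδ Tcf7WT also reaches below the limit.

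Ms4a6b followed the same order over a smaller range. It stood at 27.3 CPM (23.6 to 31.4) in TCRγδ Tcf7KO, 71.2 CPM (64.7 to 78.1) in TCRγδ Tcf7WT, 148 CPM (143 to 154) in TCRβ Tcf7KO and 172 CPM (166 to 178) in TCRβ Tcf7WT. In the TCRγδ libraries Ms4a6b was therefore above Ms4a4b, and in the TCRβ libraries below it. These are 3′ tags, counted once per transcript, so the 2 genes can be set side by side only as far as capture is alike. Thinned shares were 4.52%, 11.02%, 20.1% and 21.9%, and unthinned shares 10.7%, 18.1%, 31.6% and 31.2%, in the same order of libraries. In epithelial-like cells 1 of 45 thinned cells had a Ms4a6b UMI, a share of 2.22%. With 1 positive cell that share is loosely known. The 4.52% of TCRγδ Tcf7KO is therefore not read as expression across that library, and the 11.02% of TCRγδ Tcf7WT is not taken as clear of that background.

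Ms4a4c is listed only for the TCRβ libraries, where it was scarce. It had 102 UMIs in 83 cells of TCRβ Tcf7KO, or 5.55 CPM (4.53 to 6.74), against 141 UMIs in 120 cells of TCRβ Tcf7WT, or 6.95 CPM (5.85 to 8.196). These intervals overlap. Thinned shares were 0.887% in TCRβ Tcf7KO and 1.01% in TCRβ Tcf7WT, and unthinned shares 1.43% and 1.58%. Only 14 epithelial-like cells of these libraries were left after thinning, none with a Ms4a4c UMI, so their limit of 21.4% lies above both shares, which are not read as expression across these libraries.

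**Figure D1:**
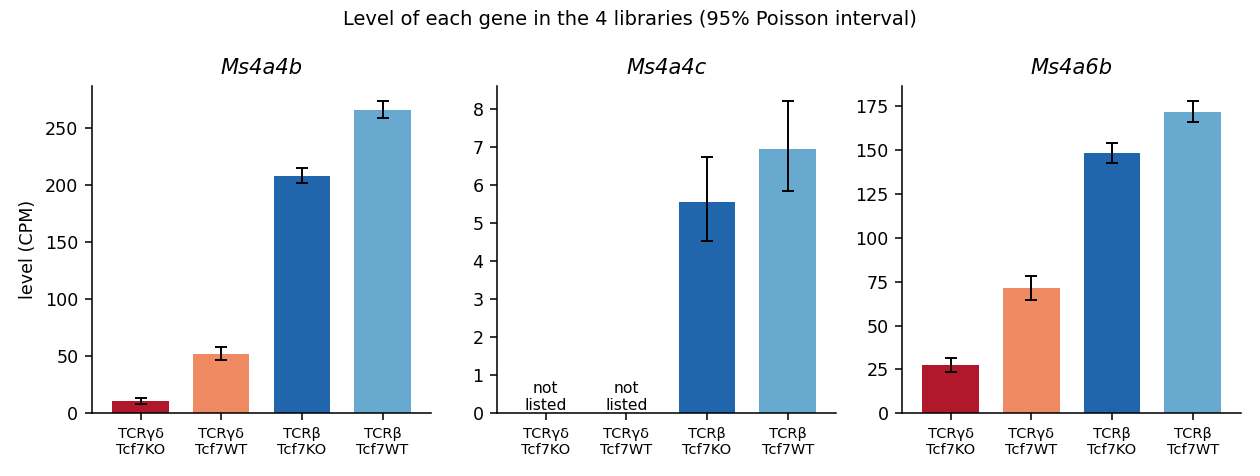
Level of each gene in CPM in the 4 libraries, each panel with its own axis from 0; bars are the summed level of 1 library and whiskers the exact 95% Poisson interval. Ms4a4b and Ms4a6b are lowest in TCRγδ Tcf7KO and highest in TCRβ Tcf7WT, and Ms4a4c is listed for the TCRβ libraries alone.

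The number of UMIs in a positive cell differed less than the share of positive cells. A positive cell holds at least 1 UMI by definition, so at low shares this contrast is largely set in advance and is not read as a result. Positive cells held on average 2.11 Ms4a4b UMIs in TCRγδ Tcf7KO, 1.62 in TCRγδ Tcf7WT, 2.28 in TCRβ Tcf7KO and 2.20 in TCRβ Tcf7WT before thinning. After thinning the means were 1.52, 1.27, 1.67 and 1.76, and the highest single cell before thinning held 5, 7, 20 and 18 UMIs, in the same order of libraries. In TCRγδ Tcf7KO all 76 Ms4a4b UMIs came from 36 cells, of which 35 also had a Trdc UMI, and in TCRγδ Tcf7WT 196 of 199 such cells had one. In the TCRβ libraries 48 of 1679 Tcf7KO cells and 61 of 2446 Tcf7WT cells with Ms4a4b had a Trdc UMI. Over all cells, a Trdc UMI was found in 97.7% of TCRγδ Tcf7KO, 95.1% of TCRγδ Tcf7WT, 2.33% of TCRβ Tcf7KO and 2.28% of TCRβ Tcf7WT cells, close to the shares among cells with Ms4a4b.

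Between genotypes, Ms4a4b and Ms4a6b were lower in Tcf7KO in both sorts, with larger ratios in the TCRγδ sort, a difference between sorts that was not tested. In TCRγδ cells the log2 ratio of Tcf7KO to Tcf7WT was -2.30 (-2.68 to -1.94) for Ms4a4b, a 4.93-fold lower level, and -1.38 (-1.63 to -1.14) for Ms4a6b. Without epithelial-like cells these ratios were -2.23 and -1.31. Both measured members were at least 1.5-fold lower, where 3.42% of the 9219 genes with at least 100 UMIs over both libraries were, and 0.130% of those genes had a lower ratio than Ms4a4b. None was 1.5-fold higher, where 4.61% of genes were, for 8.03% in either direction. In TCRβ cells the log2 ratio was -0.35 (-0.41 to -0.29) for Ms4a4b, -0.32 (-0.71 to 0.05) for Ms4a4c and -0.22 (-0.29 to -0.14) for Ms4a6b. None of the 3 was 1.5-fold lower, where 2.24% of 10764 genes were, and none was 1.5-fold higher, where 1.66% were, for 3.9% in either direction. The interval of Ms4a4c held 0. Because the genes were chosen with these ratios known, nothing is read from these counts.

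The TCRβ value moved with the scaling and the choice of cells. With TMM scaling the Ms4a4b ratio was -0.29, and -0.19 without the cells that carry UMIs of other cell types' markers, a choice that leaves 2134 TCRβ Tcf7KO and 3364 TCRβ Tcf7WT cells.

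Between sorts of the same genotype, both measured members were lower in TCRγδ cells. In Tcf7KO the log2 ratio of TCRγδ to TCRβ was -4.30 (-4.64 to -3.97) for Ms4a4b and -2.44 (-2.66 to -2.23) for Ms4a6b. In Tcf7WT it was -2.35 (-2.52 to -2.19) for Ms4a4b and -1.27 (-1.42 to -1.13) for Ms4a6b. Both were past 1.5-fold in each genotype, beside 7.2% of 10231 genes lower in Tcf7KO and 6.89% of 10283 genes lower in Tcf7WT. None was higher, where 8.45% of genes were in Tcf7KO and 6.84% in Tcf7WT. These 4 comparisons share libraries, so their ratios are not independent of each other.

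Cells were grouped by their other transcripts, leaving Ms4a genes, receptor segments, Tcf7 and proliferation genes out of the genes that made the clusters. Of 7 clusters, numbers 0 and 1 stay unnamed. Cluster 2 was cytotoxic resident IEL-like, cluster 3 circulating memory-like and cluster 4 naive or central memory-like, led by Cd8b1 and Il7r. Cluster 5 was proliferating-like and cluster 6 epithelial-like with 53 cells. The names of clusters 3 and 4 are loose. Among its leading genes cluster 4 had 2 markers from each of the naive and circulating memory lists. The tie was broken by the share of listed markers at their highest level there, 1 against 0.875. Cluster 3 had 4 circulating memory markers among its leading genes, but none of that list was highest there. No doublets were removed.

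Ms4a4b was highest in the naive or central memory-like cluster, which is nearly all TCRβ, and among the T cell clusters of the TCRβ libraries it was lowest in the cytotoxic resident IEL-like one. In cluster 4 it stood at 1326 CPM in 220 TCRβ Tcf7KO cells and 1524 CPM in 349 TCRβ Tcf7WT cells, and 83.1% and 86.2% of thinned cells had a UMI. In cluster 3 it was 493 CPM in TCRβ Tcf7KO against 597 CPM in TCRβ Tcf7WT, with thinned shares of 50.2% and 56.0%. Clusters 0 and 1 lay lower and near each other, at 167 and 192 CPM in TCRβ Tcf7KO and 197 and 181 CPM in TCRβ Tcf7WT. Cluster 2 stood at 15.4 CPM in 1205 TCRβ Tcf7KO cells and 46.2 CPM in 812 TCRβ Tcf7WT cells. Cluster 4 thus held 22.7% of the Ms4a4b UMIs of TCRβ Tcf7KO in 3.803% of its cells, and 25.9% of those of TCRβ Tcf7WT in 4.59% of its cells. The epithelial-like cluster had no Ms4a4b UMI in any library.

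Ms4a4c had its highest levels in the same clusters. It was 59.6 CPM in cluster 4 of TCRβ Tcf7KO and 57.9 CPM in that of TCRβ Tcf7WT, and 16.4 and 19.8 CPM in cluster 3. In clusters 0 and 1 it lay between 2.70 and 4.45 CPM in either library. Cluster 2 had 0 UMIs in TCRβ Tcf7KO and 2 UMIs in TCRβ Tcf7WT. Cluster 4 held 38.2% of all Ms4a4c UMIs in TCRβ Tcf7KO and 37.6% in TCRβ Tcf7WT. In cluster 4 the Ms4a4c levels of the genotypes lay within each other's intervals.

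Ms4a6b had the same top cluster with a flatter profile below it. It was 730 CPM in cluster 4 of TCRβ Tcf7KO and 805 CPM in that of TCRβ Tcf7WT. Cluster 3 stood at 162 CPM in TCRβ Tcf7KO against 226 CPM in TCRβ Tcf7WT. Clusters 0 and 1 stood at 148 and 161 CPM in TCRβ Tcf7KO, near cluster 3, and at 134 and 152 CPM in TCRβ Tcf7WT, below it. Cluster 2 still had 57.1 CPM in TCRβ Tcf7KO against 76.1 CPM in TCRβ Tcf7WT. Ms4a6b was therefore above Ms4a4b in the cytotoxic resident IEL-like cells of each TCRβ library and below it in their memory-like clusters.

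**Figure D2:**
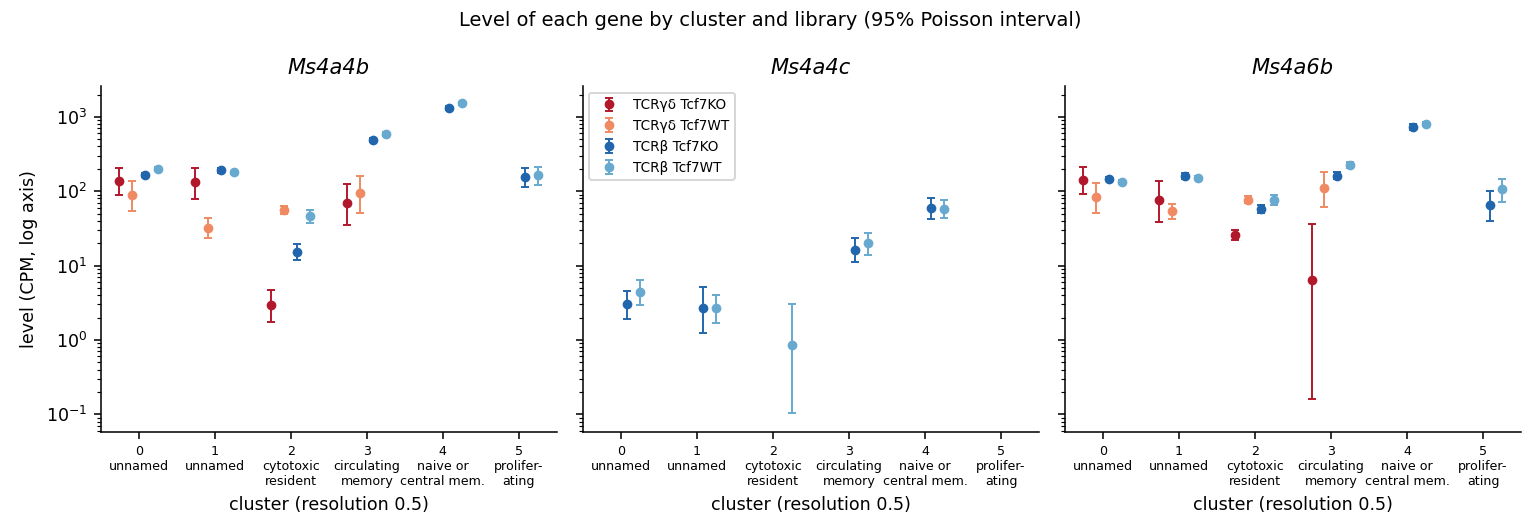
Level of each gene in CPM (log axis) in the clusters 0 to 5, with 1 point per library and exact 95% Poisson intervals; groups of fewer than 15 cells or with no UMI are not drawn. All 3 genes are highest in cluster 4 of the TCRβ libraries, and Ms4a4b in cluster 2 is 2.94 CPM in TCRγδ Tcf7KO against 55.6 CPM in TCRγδ Tcf7WT.

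In the TCRγδ sort the genotype difference of Ms4a4b went in opposite directions in different clusters, which was not tested. Cluster 2, with most of the cells, had 18 Ms4a4b UMIs in 1366 Tcf7KO cells, or 2.94 CPM, against 241 UMIs in 1342 Tcf7WT cells, or 55.6 CPM. The log2 ratio there was -4.24 (-5.02 to -3.55), and thinned shares were 0.447% in Tcf7KO and 8.28% in Tcf7WT. The Tcf7KO share lies under the limit of the epithelial-like cells. Cluster 1 had 132 CPM in 38 Tcf7KO cells against 32.3 CPM in 408 Tcf7WT cells, a log2 ratio of 2.03 (1.16 to 2.84) from 19 and 42 UMIs. Cluster 0 had 138 CPM in 55 Tcf7KO cells against 88.5 CPM in 88 Tcf7WT cells, with intervals that overlap. Of all Ms4a4b UMIs, cluster 2 held 23.7% in TCRγδ Tcf7KO and 74.6% in TCRγδ Tcf7WT.

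Ms4a6b in cluster 2 was 25.7 CPM in TCRγδ Tcf7KO against 76.6 CPM in TCRγδ Tcf7WT, a log2 ratio of -1.58. In clusters 0 and 1 Ms4a6b stood at 143 and 76.2 CPM in Tcf7KO against 84.3 and 53.9 CPM in Tcf7WT, with overlapping intervals in each cluster.

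Finer clusters, used after the values above were seen, split cluster 2, and different ones held most of it in the 2 genotypes. A cluster led by Tmprss6, Tnfrsf9 and Gzma held 1048 of its 1366 TCRγδ Tcf7KO cells, against 225 of its 1342 TCRγδ Tcf7WT cells. A cluster led by Scin, H2-Eb1 and Cd74 held 28 of the Tcf7KO cells, against 946 of the Tcf7WT cells. Within the Tmprss6 cluster Ms4a4b was 2.10 CPM (1.01 to 3.85; 10 UMIs) in Tcf7KO and 1.16 CPM (0.0293 to 6.46; 1 UMI) in Tcf7WT. Within the Scin cluster it was 67.4 CPM (24.7 to 147; 6 UMIs in 29 cells) in Tcf7KO and 84.8 CPM (74.5 to 96.2; 242 UMIs) in Tcf7WT. In both clusters the genotypes' intervals overlap, while the clusters lie far apart within either genotype.

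In 2 further clusters the intervals of the genotypes also overlapped. A cluster led by Atf3, Dnaja4 and Hspb1 had 3.24 CPM of Ms4a4b in 289 Tcf7KO cells and no UMI in 102 Tcf7WT cells, with an upper bound of 9.74 CPM. A cluster led by Batf3, Gm19590 and Capn3 had 12.7 CPM in 34 Tcf7KO cells and 4.58 CPM in 444 Tcf7WT cells, with overlapping intervals. For Ms4a6b the Tcf7KO and Tcf7WT levels were 24.7 and 27.8 CPM in the Tmprss6 cluster, 25.9 and 23.8 CPM in the Atf3 cluster, 38.0 and 40.6 CPM in the Batf3 cluster, and 78.6 and 103 CPM in the Scin cluster. With names given at this finer setting, Ms4a4b in the cytotoxic resident IEL-like cells of TCRγδ Tcf7WT was 0.806 CPM, against 55.6 CPM at the coarser one, so the level under that name depends on how finely cells are split. The genes that made the clusters differ between genotypes, so the cell numbers are given as denominators and not as a change in makeup.

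**Figure D3:**
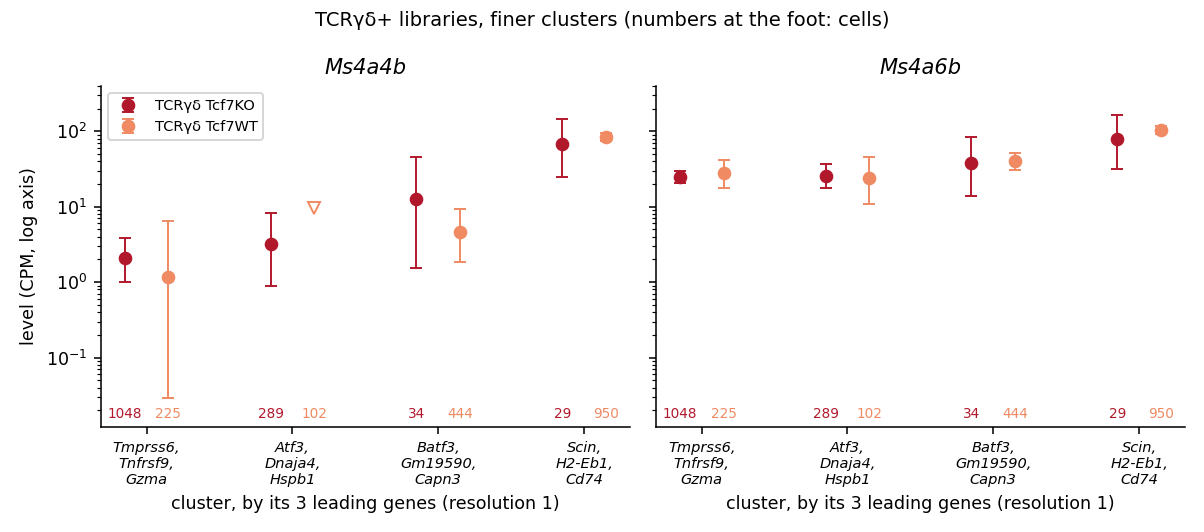
Level of Ms4a4b and Ms4a6b in CPM (log axis) in 4 finer clusters of the TCRγδ libraries, with exact 95% Poisson intervals and the number of cells at the foot; the open triangle is the upper bound of a group with no UMI. The intervals of Tcf7KO and Tcf7WT overlap in each cluster, and of these 4 both genes are highest in the cluster led by Scin. Other finer clusters are not drawn. Among them, the cluster led by D730005E14Rik had more Ms4a4b, at 590 CPM in 10 Tcf7KO cells and 283 CPM in 57 Tcf7WT cells.

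In cluster 2 of the TCRβ sort, the Tmprss6 cluster held 731 of 1205 Tcf7KO cells and 85 of 812 Tcf7WT cells. The Scin cluster held 49 and 622 of them, numbers given as denominators here too. Over all TCRβ cells the Scin cluster had 46.2 CPM of Ms4a4b in 50 Tcf7KO cells and 69.8 CPM in 641 Tcf7WT cells. The Tmprss6 cluster had 11.2 CPM in 749 Tcf7KO cells and no UMI in 86 Tcf7WT cells. Clustered more finely, the circulating memory-like cells of the TCRβ sort had 654 CPM of Ms4a4b in Tcf7KO and 648 CPM in Tcf7WT. The genotype order seen in cluster 3 was thus not kept there. Finer naive or central memory-like cells stayed lower in Tcf7KO with intervals apart, at 1320 CPM against 1531 CPM in Tcf7WT. The same held in the clusters led by Gm19327, at 162 against 207 CPM, and by Hspa1a, at 195 against 242 CPM. In all other finer clusters of the TCRβ sort the intervals of the genotypes overlapped.

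The members were found together more often than their shares alone give, and most of that excess went with the clusters. After thinning, Ms4a4b and Ms4a6b were both found in 374 TCRβ Tcf7KO cells, where the product of their shares gives 225, a ratio of 1.66 (1.503 to 1.83). In TCRβ Tcf7WT 582 cells had both against 381, a ratio of 1.53 (1.41 to 1.65). With the product taken within each cluster, the ratios were 1.18 in TCRβ Tcf7KO and 1.16 in TCRβ Tcf7WT. In cluster 4 they were 0.997 and 1.02, and either gene was found in 95.4% and 94.9% of its thinned cells. Each gene was in most cells of cluster 4, which leaves its ratio little room above 1. In clusters 0, 1 and 3 the ratios were 1.29, 1.24 and 1.19 in TCRβ Tcf7KO, and 1.26, 1.23 and 1.16 in TCRβ Tcf7WT. In cluster 2 they were 4.06 from 7 cells with both in TCRβ Tcf7KO, and 1.94 from 9 in TCRβ Tcf7WT.

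In the TCRγδ sort 6 Tcf7KO cells had Ms4a4b and Ms4a6b, where the product gives 1.04, a ratio of 5.77 (2.12 to 12.5) that was 1.79 within clusters. In TCRγδ Tcf7WT 36 cells had both against 12.3, a ratio of 2.92 (2.05 to 4.02). Taken within clusters it was 2.79 there. Cluster 2 still joins finer clusters whose Ms4a4b levels lie apart, and their part in this ratio was not tested.

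Cells with Ms4a4c were mostly cells with Ms4a4b. In TCRβ Tcf7KO 32 of 47 thinned Ms4a4c cells had a Ms4a4b UMI, or 68.1%, against 20.7% of the other cells. In TCRβ Tcf7WT 52 of 69 had one, or 75.4%, against 25.0% of the others. The ratios to the product were 3.22 and 2.96, and 1.43 and 1.42 within clusters. The coding sequences of the pair are 91.8% identical, so the part of reads assigned to the wrong copy was not tested. Ms4a4c with Ms4a6b gave ratios of 2.54 in TCRβ Tcf7KO and 2.06 in TCRβ Tcf7WT, and 1.36 and 1.09 within clusters. All 3 genes were found in 18 TCRβ Tcf7KO cells and 23 TCRβ Tcf7WT cells, where the product of the 3 shares gives 1.997 and 3.84.

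**Figure D4:**
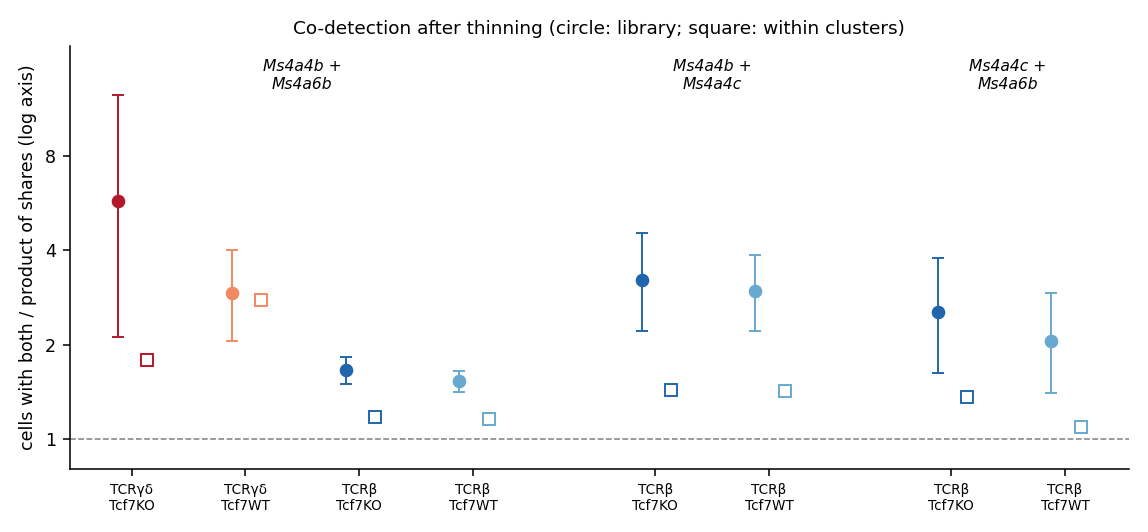
Ratio of the thinned cells with both genes to the number given by the product of their shares (log axis), by pair and library. Circles use the whole library, with exact 95% intervals of the number of cells with both, the product taken as fixed. Squares take the product within clusters, and the dashed line marks 1. Most of the ratios above 1 come closer to 1 within clusters, except Ms4a4b with Ms4a6b in TCRγδ Tcf7WT, at 2.92 and 2.79.

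Single genes of naive and resident cells split the positive cells in the same way. In TCRβ Tcf7KO 50.6% of thinned cells with Cd8b1, the β chain of the CD8 coreceptor of conventional T cells, had Ms4a4b against 18.5% of those without, and in TCRβ Tcf7WT 62.7% against 22.2%. Klf2, a factor of recirculating T cells, gave 36.7% against 16.3% in TCRβ Tcf7KO and 40.1% against 19.5% in TCRβ Tcf7WT. Itgae, the integrin that binds epithelial E-cadherin, and Gzma, a granzyme, went the other way. With and without a Gzma UMI, 10.3% and 25.5% of TCRβ Tcf7KO cells and 10.7% and 27.0% of TCRβ Tcf7WT cells had Ms4a4b.

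In TCRγδ cells the Gzma split lay apart in Tcf7KO and overlapped in Tcf7WT, a difference that was not tested. With and without a Gzma UMI, 0.644% (0.278 to 1.27) and 6.22% (3.53 to 10.1) of TCRγδ Tcf7KO cells had Ms4a4b, against 7.38% (5.79 to 9.25) and 6.58% (4.81 to 8.77) of TCRγδ Tcf7WT cells. Both Tcf7KO shares and the Tcf7WT share without Gzma lie under the 6.67% limit of the epithelial-like cells. Thy1, a surface glycoprotein of T cells, kept its direction. The shares with and without Thy1 were 11.7% and 0.996% in TCRγδ Tcf7KO, and 16.1% and 4.16% in TCRγδ Tcf7WT. Those without Thy1 lie under that limit too. Shares under the limit are not read as expression. Cells with a Tcf7 UMI had Ms4a4b more often in the TCRβ libraries, at 31.2% against 19.3% in TCRβ Tcf7KO and 31.4% against 23.9% in TCRβ Tcf7WT. In the TCRγδ libraries the shares with and without Tcf7 had overlapping intervals, at 8.57% from 3 of 35 cells and 1.38% in Tcf7KO, and at 10.8% and 6.80% in Tcf7WT.

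Ms4a6b split the same way as Ms4a4b by Cd8b1 and by Gzma, and Ms4a4c by Cd8b1. With and without Cd8b1, Ms4a6b was found in 44.0% and 18.01% of TCRβ Tcf7KO cells and in 49.5% and 19.4% of TCRβ Tcf7WT cells. Ms4a4c was found in 3.98% and 0.616% of TCRβ Tcf7KO cells and in 4.64% and 0.684% of TCRβ Tcf7WT cells. Gzma gave 15.5% with and 22.0% without for Ms4a6b in TCRβ Tcf7KO, and 12.4% with and 22.8% without in TCRβ Tcf7WT. For Ms4a4c the Gzma shares had overlapping intervals, at 0.856% with and 0.900% without in TCRβ Tcf7KO, and at 0.157% with and 1.10% without in TCRβ Tcf7WT.

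**Figure D5:**
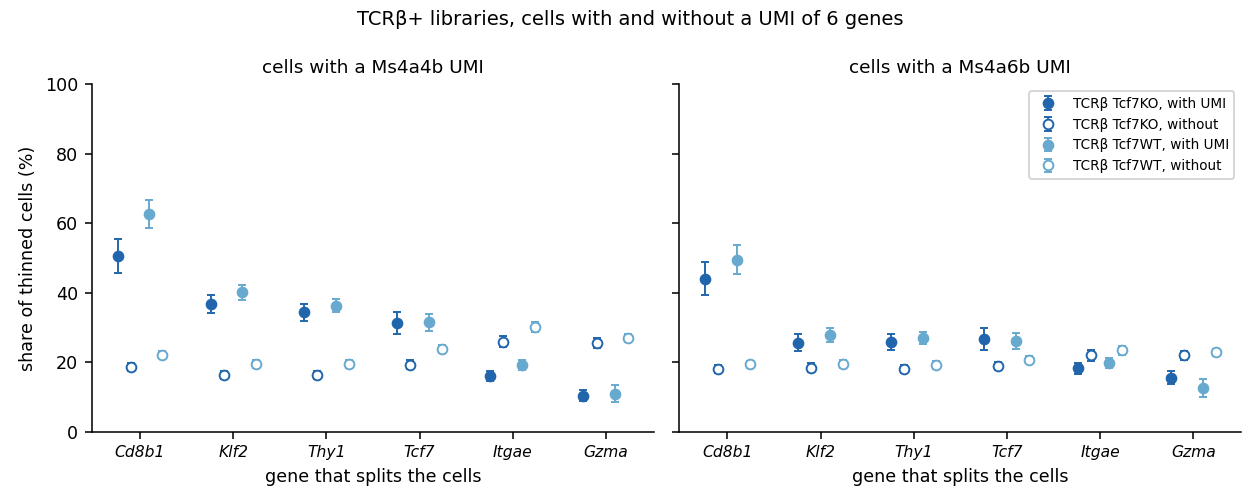
Share of thinned TCRβ cells with a Ms4a4b or a Ms4a6b UMI (percent, exact 95% intervals), among cells with (filled) and without (open) a UMI of the gene on the x axis. Shares are higher with Cd8b1, Klf2, Thy1 or Tcf7 and lower with Itgae or Gzma, in both genotypes.

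The genes whose levels were most like those of each member were ranked over groups of at least 50 cells, each 1 cluster of 1 library. Pearson r of log2(CPM + 10) describes these groups, which share libraries and depth. Over 15 groups and 8115 genes, those most like Ms4a4b were Pik3ip1, an inhibitor of PI3 kinase, at 0.970, Klf3, a transcriptional repressor, at 0.967, Sh3kbp1, an adaptor, at 0.966, Arhgap15 at 0.963, and Kcnn4, a potassium channel, at 0.961. Ms4a6b had an r of 0.958 with Ms4a4b. For Ms4a6b its neighbour Ms4a6c came first at 0.984, followed by Lat, an adaptor of receptor signalling, at 0.971, Fxyd5 and the antiviral membrane protein Bst2 at 0.961 each, and the integrin chain Itgal at 0.958. Ms4a4c could be ranked over 10 TCRβ groups only, where Cd6, a T cell surface receptor, and Il7r, the interleukin-7 receptor, both reached 0.991. Samhd1 at 0.990, Arl4c at 0.988 and Ikzf1 at 0.987 followed. Its r was 0.910 with Ms4a4b and 0.942 with Ms4a6b. In clusters 0, 1 and 2 Ms4a4c lay under the 10 CPM added before the log. The r values of Ms4a4c therefore rest mostly on clusters 3 and 4. Ms4a6c was low too, at 3.06 to 20.4 CPM over the libraries, near the 10 CPM added.

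Of the 19 Ms4a genes annotated on chromosome 19, 8 are listed in any library. Ms4a6c, listed in all 4 libraries, followed the order of Ms4a4b and Ms4a6b, with 3.06 CPM in TCRγδ Tcf7KO, 10.2 in TCRγδ Tcf7WT, 17.4 in TCRβ Tcf7KO and 20.4 in TCRβ Tcf7WT. Its log2 ratio of Tcf7KO to Tcf7WT was -1.73 in the TCRγδ sort and -0.23 in the TCRβ sort, and in TCRβ cells it too peaked in cluster 4, at 81.0 CPM in Tcf7KO and 84.1 CPM in Tcf7WT. Ms4a6b and Ms4a6c were found together 2.42 times as often as the product in TCRβ Tcf7KO and 2.27 times in TCRβ Tcf7WT, and 1.75 and 1.68 times within clusters. The coding sequences of this pair are 86.3% identical, and the part of reads assigned to the wrong copy was not tested.

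Ms4a8a, known from epithelium, differed from the members. It stood at 20.5 CPM in TCRγδ Tcf7KO against 6.78 CPM in TCRγδ Tcf7WT, and at 2.29 CPM in TCRβ Tcf7KO against 2.81 CPM in TCRβ Tcf7WT. In TCRγδ Tcf7KO its 147 UMIs came from 26 cells, with up to 27 in 1 cell. The keratin gene Krt8 moved with it, at 2740 UMIs in TCRγδ Tcf7KO against 812 in TCRγδ Tcf7WT, and the part of epithelial RNA in the Ms4a8a difference was not tested. Ms4a6d had 12 UMIs in TCRγδ Tcf7WT, 17 in TCRβ Tcf7KO and 45 in TCRβ Tcf7WT. Ms4a4d, with 3 in TCRβ Tcf7KO and 6 in TCRβ Tcf7WT, and Ms4a4a, with 4 in TCRβ Tcf7WT, were near the limit of detection. The B cell gene Ms4a1 and the mast cell gene Ms4a2 are not listed.

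The related genes Tmem176a and Tmem176b went the other way from the members in TCRγδ cells. Tmem176a was 8.91 CPM in TCRγδ Tcf7KO against 2.58 CPM in TCRγδ Tcf7WT, and Tmem176b 17.4 against 7.59 CPM. In the TCRβ sort they differed little, at 10.9 CPM in Tcf7KO against 9.56 CPM in Tcf7WT for Tmem176a and 16.7 against 14.8 CPM for Tmem176b. Tnfrsf18, which encodes GITR, was measured at similar levels in all 4 libraries, at 169 CPM in TCRγδ Tcf7KO, 136 in TCRγδ Tcf7WT, 146 in TCRβ Tcf7KO and 156 in TCRβ Tcf7WT. The partner of the Ms4a4b protein thus spanned a narrow range where Ms4a4b itself spanned 10.6 to 266 CPM.

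Lists of T cell genes give the setting of these differences. A list gene counts as measured with at least 20 UMIs over both libraries, while shares and medians over all genes use those with at least 100. In the TCRγδ sort 1 of 9 measured naive and memory genes was at least 1.5-fold higher in Tcf7KO and 2 were lower, with a median log2 ratio of -0.15 against -0.03 over all genes, of which 4.61% were higher and 3.42% lower. Beside Tcf7, the lowest was Il7r, at 3.20 CPM in Tcf7KO against 18.9 CPM in Tcf7WT, while Satb1, a chromatin organiser of T cells, was higher at 50.7 against 25.2 CPM, and Klf2 was 94.2 against 139 CPM. Of 15 cytotoxic and residency genes 4 were higher and 2 lower, with a median of -0.01. Among them Gzmk was 0.835 CPM in Tcf7KO against 32.3 CPM in Tcf7WT, Cd160 236 against 595 CPM, Gzmc 88.0 against 46.0 CPM and Cxcr6 317 against 173 CPM. Of 15 interferon response genes 1 was higher and 0 lower, with a median of -0.19.

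In the TCRβ sort 0 of 16 naive and memory genes were higher in Tcf7KO and 2 lower, with a median of -0.05 against -0.07 over all genes, of which 1.66% were higher and 2.24% lower. For cytotoxic and residency genes 5 of 15 were higher and 1 lower, with a median of 0.24, and for interferon response genes 0 of 17 were higher and 1 lower, with a median of 0.04. Between sorts, the naive and memory genes went with the members. In Tcf7KO 10 of 12 were at least 1.5-fold lower in TCRγδ than in TCRβ cells, with a median of -2.58 against -0.07 over all genes, of which 7.2% were lower. In Tcf7WT 9 of 11 were, with a median of -1.69 against -0.09 over all genes, of which 6.89% were lower.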

How the data were processed

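The data are raw UMI counts per gene and cell as the authors deposited them, in 1 matrix per library of the 10x 3′ v2 kit, per the labels' protocols. Seurat 3.0.0 and the GRCm38 (mm10) build come from the submitters' processing notes. The matrices hold no cell types. The aligner and cell filters are not given in the sources used here. A gene a library does not list was left without a value there.

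UMIs were summed per library into CPM with exact Poisson intervals. Ratios are of CPM with exact conditional intervals, and shares have exact Clopper-Pearson intervals, at 95%. Intervals of co-detection ratios cover the number of cells with both genes and take the product as fixed. A count of 0 allows a share of 3 counts. Thinning drew 1624 UMIs from each cell, a depth set by the 10th percentile of TCRβ Tcf7WT, and left out 28, 300, 489 and 759 cells of TCRγδ Tcf7KO, TCRγδ Tcf7WT, TCRβ Tcf7KO and TCRβ Tcf7WT. Total UMIs were 7184668, 6195292, 18372180 and 20289960 in that order, and pairs of libraries shared 1 to 10 barcodes.

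Cells with at least 200 genes were clustered with scanpy 1.11.5 and leidenalg 0.10.2 (2000 variable genes, 30 components, 15 neighbours, resolution 0.5; 0.3 and 1 as alternatives). Clusters took a name from marker lists. Scrublet marked 29 cells of TCRγδ Tcf7KO and 1 of TCRβ Tcf7WT, so it is not taken to have worked and doublets were kept. Scalings by edgeR 4.0.16 (TMM) and DESeq2 1.42.0 size factors were alternatives. Calculations were tested on simulated data. No groups were tested, since each is 1 library.

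Named are the 3 members, the other listed Ms4a genes, Tmem176a and Tmem176b, the 5 most alike genes per member, and up to 4 genes per list by their ratio in the TCRγδ genotype comparison. Members and lists were chosen with earlier results of these data known. The split of cells by 1 further gene is not reported here.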

Additional observations from a re-analysis of the deposited data

Results flagged for a closer look

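In these 5 results the genotype difference of a gene ran one way in a cluster and the opposite way in another cluster of the same sort, with intervals that leave out 0. The difference between the clusters was not tested. In the TCRγδ sort the Ms4a4b log2 ratio of Tcf7KO to Tcf7WT was 2.03 in unnamed cluster 1 and -4.24 in cytotoxic resident IEL-like cluster 2. The first rests on 38 Tcf7KO cells with 19 Ms4a4b UMIs against 408 Tcf7WT cells with 42. The second rests on 18 UMIs in Tcf7KO against 241 in Tcf7WT. In every finer TCRγδ cluster with cells of both genotypes the Ms4a4b intervals of Tcf7KO and Tcf7WT overlapped, many on few UMIs. Overlap of such intervals is a looser reading than the interval of a ratio, which was not taken at the finer setting. In the finer cluster led by D730005E14Rik, Ms4a4b was 590 CPM (344 to 945) from 17 UMIs in 10 Tcf7KO cells. In 57 Tcf7WT cells of that cluster it was 283 CPM (191 to 404) from 30 UMIs. The finer setting therefore does not settle either direction. In the TCRβ sort the Ms4a6b log2 ratio of Tcf7KO to Tcf7WT was 0.14 in unnamed cluster 0, -0.42 in cytotoxic resident IEL-like cluster 2 and -0.48 in circulating memory-like cluster 3.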

How the results depend on the processing

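No paired analysis was possible because each group is 1 library, and no library could be left out. The number of members at least 1.5-fold apart was the same under every alternative run, a 2-fold threshold included. The Ms4a4b log2 ratio moved beyond its counting interval as follows. In TCRβ Tcf7KO against Tcf7WT it was -0.29 by TMM (-0.2854) and by DESeq2 size factors (-0.2885), and -0.1908 without cells with markers of other types. Those marker lists hold genes that IELs carry, such as Epcam, and the choice leaves 279 TCRγδ Tcf7KO cells. In TCRγδ Tcf7KO against Tcf7WT it was -1.828 without such cells and -1.922 thinned. In TCRγδ against TCRβ it was, for Tcf7KO, -3.755 with each cell weighted alike, -3.692 without cells with other markers and -3.902 thinned, and for Tcf7WT -2.117 with each cell weighted alike, -2.055 without cells with other markers and -2.004 without naive-like cells. Without circulating and naive-like cells, a choice made after seeing the data, these ratios were -3.879 and -1.729. Thinned to 1000 UMIs, Ms4a4b was in 4.942% of TCRγδ Tcf7WT, 15.99% of TCRβ Tcf7KO and 19.49% of TCRβ Tcf7WT cells. Without naive-like cells, the co-detection ratio of Ms4a4b and Ms4a6b was 1.487 in TCRβ Tcf7KO and 1.345 in TCRβ Tcf7WT. The Ms4a4c ratio in TCRβ cells ranged from -0.57 to 0.07, the sign being positive without cells with other markers. The Ms4a6b ratio of Tcf7KO to Tcf7WT ranged from -1.384 to -0.8569 in TCRγδ and from -0.2157 to -0.1208 in TCRβ cells. In both sorts the value nearest to no difference came without cells with other markers. Its ratio of TCRγδ to TCRβ ranged from -2.44 to -1.958 in Tcf7KO and from -1.273 to -0.929 in Tcf7WT. With a minimum of 20 UMIs in place of 100, genes at least 1.5-fold apart numbered 2004 in place of 740 for genotype in TCRγδ, 1227 in place of 420 in TCRβ, and 2926 in place of 1602 and 2539 in place of 1411 for the sorts in Tcf7KO and Tcf7WT. With no minimum they numbered 2539, 1736, 3363 and 3011. Where a finer TCRγδ cluster held 10 Ms4a4b UMIs or fewer, differences within its interval were not detectable at this depth.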
